A study of Mus musculus with 9 samples.

Results

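The genes described here are markers of the distal nephron and the subunits of its sodium channel. They were chosen by name: Umod, Scnn1a, Scnn1b, Scnn1g, Calb1, Avpr2, Nr3c2 and Wnk4. Of these 8 genes, 7 were found among the 15096 genes with a single symbol on the array, each by 1 probe, and Nr3c2 was not analysed here. Male SJL/J and C57BL/6J mice, inbred laboratory strains, were compared at an age of 8 weeks in kidney, brain and liver. On each of 9 spotted arrays, 3 per tissue, pooled RNA of 5 SJL/J mice labelled with Alexa Fluor 647 met pooled RNA of 5 C57BL/6J mice labelled with Alexa Fluor 555. Within a tissue, all 3 arrays held RNA of 1 pair of pools, so every SD and p-value below measures the spread between arrays and not between mice.

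The values are log2 strain ratios. A positive ratio likely means more RNA in the SJL/J pool than in the C57BL/6J pool. The labels state neither the direction nor the log base, and both were inferred. Nnt, a gene partly deleted in C57BL/6J, was above 0 on 9 of 9 arrays, from 0.15 to 1.06. Dyes were not exchanged, so an effect of the dye on a single probe adds to its ratio. The table holds ratios without intensities, so it could not be checked whether the tissues carried their own markers, or whether a kidney gene gave a signal above background in brain or liver. The array labelled brain replicate 3 stood apart: over all probes it correlated at 0.52 to 0.57 with the other brain arrays and at 0.58 to 0.63 with the kidney arrays, whereas the other pairs of arrays of 1 tissue lay between 0.76 and 0.79.

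The distal nephron runs from the thick ascending limb through the distal convoluted and connecting tubule to the collecting duct, and it sets the final content of salt, calcium and water in urine. The epithelial sodium channel takes up sodium across the apical membrane of the connecting tubule and collecting duct. It is built of an alpha, a beta and a gamma subunit, encoded by Scnn1a, Scnn1b and Scnn1g, and aldosterone raises its activity through the mineralocorticoid receptor. Vasopressin acts on the same cells through its V2 receptor and brings water channels to the membrane.

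In kidney, RNA of the alpha subunit and of calbindin was higher in the SJL/J pool (likely direction), and the other 5 genes did not pass the test. Scnn1a was 1.54-fold and Calb1 1.51-fold higher. Those 2 of 7 calls stand beside 27.4% of all genes called in kidney (13.5% higher and 13.9% lower, at an adjusted p under 0.05), so the number of calls was near that of the array as a whole. The median ratio of the 7 genes was 0.12 in kidney, against 0.03 over all genes. In bulk tissue RNA, fewer cells of a type and less RNA per cell cannot be told apart.

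Scnn1a encodes the alpha subunit, which the channel needs to reach the cell surface. Its log2 ratio was 0.76, 0.63 and 0.48 on kidney replicates 1, 2 and 3. It was -0.20, -0.26 and -0.04 on the brain arrays and -0.38, -0.57 and -0.07 on the liver arrays. Every kidney array lay above every brain and liver array, while the brain and liver arrays overlapped.

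The kidney mean of Scnn1a was 0.63 ± 0.14 (SD, n = 3 arrays), with a 95% confidence interval of 0.39 to 0.86 and an adjusted p of 0.00187. This was above the kidney ratio of 96.3% of genes. Its spot was also the highest of the 24 consecutive spots of its line, whose median was 0.07, and spots at its place in the other blocks of the array had a median of -0.02. The call was made under all 17 alternative settings, with ratios from 0.51 to 0.70.

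In liver Scnn1a fell by 0.34 on the log2 scale, with an SD of 0.25 (n = 3 arrays, adjusted p = 0.0413), where 24.5% of all genes were called (10.1% higher, 14.4% lower) and Scnn1a was 1 of 7. That call was made under 7 of 17 alternatives. It ended without liver replicate 1 (-0.32, adjusted p = 0.164) and without liver replicate 2 (-0.22, adjusted p = 0.253). With the ratio at -0.34, it also ended without brain replicate 2 (adjusted p = 0.0504) and without kidney replicates 1, 2 or 3 (adjusted p = 0.0525, 0.0601 and 0.0515). The line of its spot had a median of -0.26 in liver, and after subtraction of line and column medians the ratio was -0.19 (adjusted p = 0.142). In brain the mean was -0.17 ± 0.11 (SD, n = 3) and did not pass (adjusted p = 0.305).

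Scnn1b and Scnn1g encode the beta and gamma subunits. In the reference annotation GRCm38.p6 they are neighbours, with 0 protein-coding genes between them. Scnn1b had log2 ratios of -0.26, -0.13 and 0.15 on kidney replicates 1, 2 and 3, against -0.32, -0.23 and -0.09 in brain and -0.20, -0.33 and -0.29 in liver. All brain and liver arrays were below 0, and the kidney arrays lay on both sides of 0.

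For Scnn1g the kidney ratios were -0.09, -0.24 and 0.07, those in brain -0.56, 0.07 and -0.26, and those in liver -0.18, -0.05 and 0.01. Its arrays overlapped in all tissues. The kidney means were -0.08 ± 0.21 for Scnn1b (SD, n = 3, adjusted p = 0.587) and -0.09 ± 0.15 for Scnn1g (adjusted p = 0.609). Their 95% confidence intervals, -0.29 to 0.14 and -0.35 to 0.17, both ended below the lower bound of Scnn1a. On single kidney arrays the ratio of Scnn1a exceeded that of Scnn1b by 1.02, 0.76 and 0.33, and that of Scnn1g by 0.86, 0.88 and 0.41. In brain these differences ran from -0.33 to 0.35 and in liver from -0.51 to 0.22, and the kidney difference was smallest on replicate 3. This difference between subunits is a description, with no test.

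**Figure D1:**
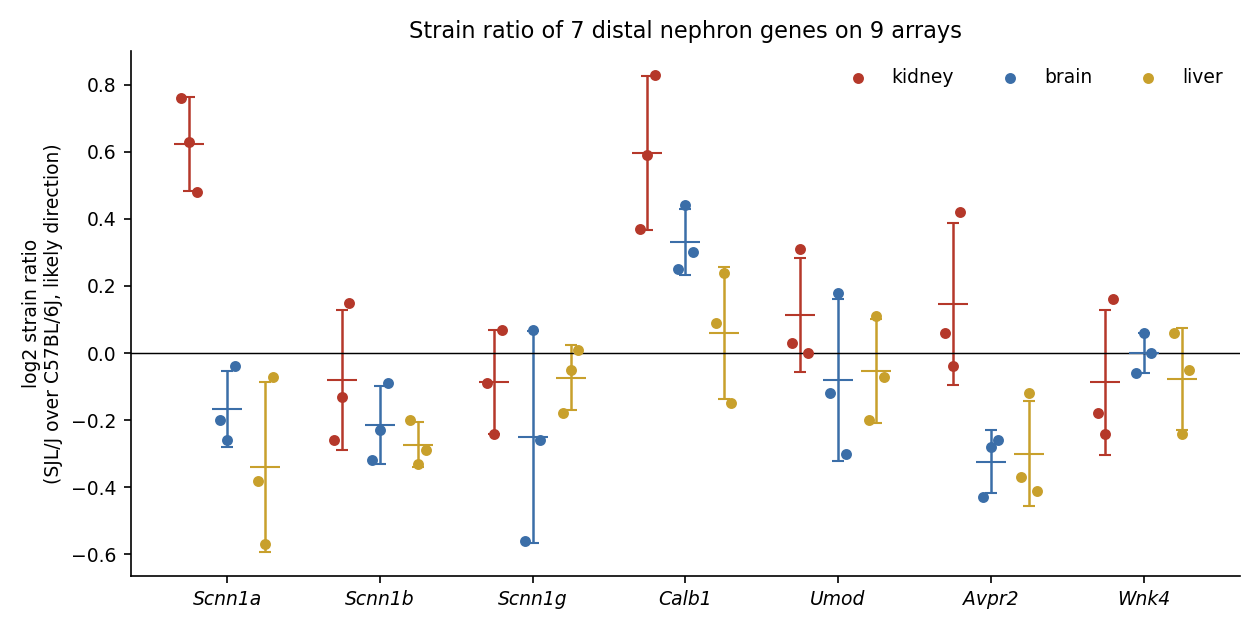
Log2 strain ratio (vertical axis, SJL/J over C57BL/6J, likely direction) of the 7 genes on each array, with kidney left of brain and liver; points are arrays, the horizontal mark is the mean and the bar is the SD over 3 arrays. Scnn1a had 0.48 to 0.76 in kidney and -0.57 to -0.04 in the other tissues, and Calb1 had 0.37 to 0.83 in kidney.

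Calb1 encodes calbindin-D28k, a calcium buffer of distal convoluted and connecting tubule cells and of many neurons, among them Purkinje cells. Its log2 ratio was 0.37, 0.59 and 0.83 on kidney replicates 1, 2 and 3, then 0.25, 0.44 and 0.30 in brain and 0.09, 0.24 and -0.15 in liver. All kidney and brain arrays were above 0. The lowest kidney array overlapped the brain arrays and lay above all liver arrays.

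The kidney mean of Calb1 was 0.59 ± 0.23 (SD, n = 3), with a 95% confidence interval of 0.36 to 0.83 and an adjusted p of 0.00264. It was the highest of the 24 spots of its line in kidney, where the line median was 0.03. The call was made under all 17 alternatives, with ratios from 0.46 to 0.71. In brain the mean was 0.33 ± 0.10 and did not pass (adjusted p = 0.0585), with 0 of 7 genes called there against 17.2% of all genes (7.55% higher, 9.61% lower). By unadjusted p, 2 of 7 were under 0.05 in brain. The brain ratio of Calb1 passed under 1 of 17 alternatives, after subtraction of line and column medians (0.44, adjusted p = 0.0352). Among 12 measured genes of Purkinje cells and other inhibitory or calcium-buffering neurons, 1 rose in brain, 0 fell and 11 did not pass. The 8.33% called was below the 17.2% of all genes, and the ratios ran from -0.07 to 0.69 with a median of 0.12. The one that rose, named after its value was seen, was Pcp2, a Purkinje cell protein, at 0.69 ± 0.40 (SD, n = 3, adjusted p = 0.00507, and 0.0817 on the brain arrays alone).

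Umod encodes uromodulin, the abundant urinary protein made by the thick ascending limb. Its kidney ratios were 0.03, 0.31 and 0.00, against -0.12, 0.18 and -0.30 in brain and -0.20, 0.11 and -0.07 in liver. Replicate 2 was the highest array of each tissue, and the tissues overlapped. The kidney mean was 0.12 ± 0.17 (SD, n = 3), with a 95% confidence interval of -0.13 to 0.36 (adjusted p = 0.473).

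Avpr2 encodes the vasopressin V2 receptor. It had 0.06, -0.04 and 0.42 on kidney replicates 1, 2 and 3, against -0.43, -0.28 and -0.26 in brain and -0.37, -0.12 and -0.41 in liver. Every kidney array was above every brain and liver array. The kidney mean was 0.15 ± 0.24 (SD, n = 3) with a 95% confidence interval of -0.08 to 0.38 (adjusted p = 0.324). The means of -0.32 ± 0.10 in brain (adjusted p = 0.0602) and -0.30 ± 0.16 in liver (adjusted p = 0.0621) did not pass either. They passed under 1 of 17 alternatives in brain and 3 of 17 in liver. Leaving out kidney replicate 3, which cannot move these ratios, gave an adjusted p of 0.0478 in brain at -0.32 and 0.0468 in liver at -0.30.

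Wnk4 encodes a kinase that controls the sodium chloride cotransporter of the distal convoluted tubule and the sodium channel. Its ratios were -0.18, -0.24 and 0.16 in kidney, -0.06, 0.06 and 0.00 in brain and 0.06, -0.24 and -0.05 in liver. All tissues spanned 0. The kidney mean was -0.08 ± 0.22 (SD, n = 3), with a 95% confidence interval of -0.31 to 0.14 (adjusted p = 0.570).

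By mean kidney ratio the order was Scnn1a, Calb1, Avpr2, Umod, Scnn1b, Wnk4 and Scnn1g, with 0.71 log2 units between the first and the last. The arrays of each gene overlapped those of the next. The largest step, 0.44, lay between Calb1 and Avpr2, whose ranges of 0.37 to 0.83 and -0.04 to 0.42 overlapped through Avpr2 on replicate 3. Of the 7 genes, 5 had their highest kidney ratio on replicate 3, while Scnn1a and Umod had their lowest there.

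**Figure D2:**
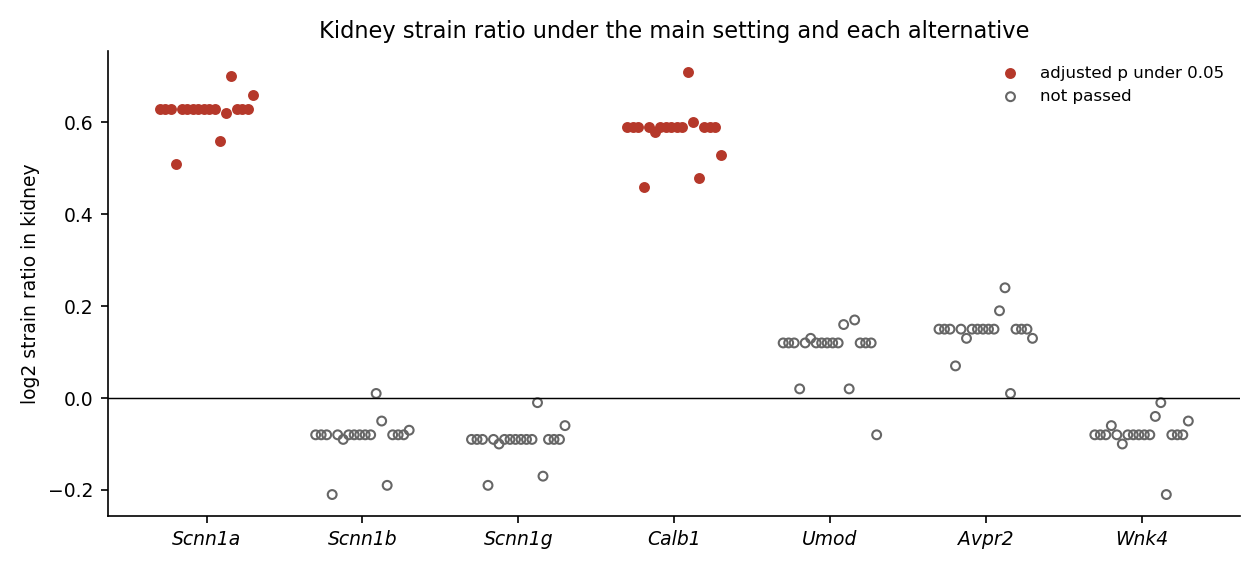
Log2 strain ratio in kidney (vertical axis) of each gene as reported and under each of 17 alternative settings, as points from left to right; filled points passed at an adjusted p under 0.05 and open ones did not. Scnn1a stayed between 0.51 and 0.70 and Calb1 between 0.46 and 0.71, and no other gene passed in kidney under any setting.

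The difference between tissues asks whether a strain ratio is larger in kidney than elsewhere, and a dye effect that a probe shows in both tissues cancels in it. All deposited columns hold the same set of values, so the size of a ratio follows its rank on its array. Folds and differences between tissues are on this common scale. A difference between tissues in the general size of strain ratios cannot be seen. Between kidney and liver 2 of 7 genes differed, beside 19.5% of all genes (11.0% with the higher ratio in kidney), and between kidney and brain 1 of 7, beside 5.47% (2.97% with the higher ratio in kidney). The ratio of Scnn1a was higher in kidney than in liver by 0.96 (SE 0.15, 95% confidence interval 0.63 to 1.30, adjusted p = 0.00202). This difference was called under all 17 alternatives, with values from 0.69 to 1.10. Against brain it was 0.79 (SE 0.15, 0.46 to 1.13, adjusted p = 0.0176). That call ended without brain replicate 2 (0.75, adjusted p = 0.0746), kidney replicate 1 (0.73, adjusted p = 0.0757) or kidney replicate 2 (0.79, adjusted p = 0.0622), and was kept without brain replicate 3 (adjusted p = 0.00937).

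Calb1 had a ratio higher in kidney than in liver by 0.54 (SE 0.15, 95% confidence interval 0.20 to 0.87, adjusted p = 0.0329). The call ended without kidney replicate 2 (0.54, adjusted p = 0.0807), kidney replicate 3 (0.42, adjusted p = 0.120), liver replicate 1 (0.55, adjusted p = 0.0738) or liver replicate 3 (0.43, adjusted p = 0.113). It also ended after subtraction of line and column medians (0.43, adjusted p = 0.117) or of the median of its place in all blocks (0.49, adjusted p = 0.0590). Against brain the difference was 0.26, with a 95% confidence interval of -0.08 to 0.60 (adjusted p = 0.316).

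Avpr2 had 0.45 between kidney and liver (95% confidence interval 0.12 to 0.78, adjusted p = 0.0577) and 0.47 between kidney and brain (0.14 to 0.81, adjusted p = 0.0891). Its difference to liver passed under 2 of 17 alternatives, among them without brain replicate 3 (0.45, adjusted p = 0.0460). Umod, Scnn1b, Scnn1g and Wnk4 had differences from -0.09 to 0.20, none of which passed, and their 95% confidence intervals reached at most 0.55.

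**Figure D3:**
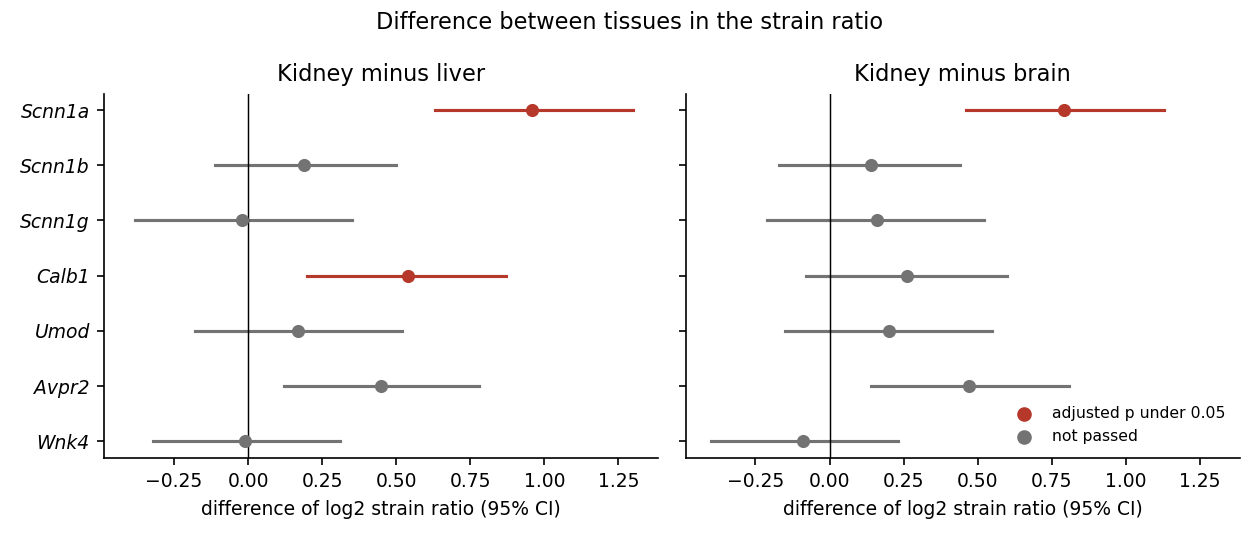
Difference of the log2 strain ratio between kidney and liver (left) and between kidney and brain (right), horizontal axis, for each gene, with its unadjusted 95% confidence interval as the line; red marks an adjusted p under 0.05. Scnn1a lay at 0.96 and 0.79 and Calb1 at 0.54 and 0.26.

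Other genes of the distal segments gave a setting for these values. Across 3 lists of thick ascending limb, distal convoluted or connecting tubule and collecting duct genes, which do not include the 7 genes, 46 were measured. Of these, 13 rose in kidney, 2 fell and 31 did not pass, with a median ratio of 0.21. The 13 were 28.3% of the lists, beside 13.5% of all genes called higher in kidney. Of 54 genes of the proximal tubule, glomerulus and kidney endothelium, 6 rose (11.1%), 7 fell and 41 did not pass, with a median of 0.00. The count of 13 was 5 without kidney replicate 1, 7 without replicate 2 and 8 without replicate 3. Over all genes, the 4138 kidney calls in either direction were 2170, 2278 and 2384 in the same settings. For the second set, the counts were 2 rose and 2 fell without kidney replicate 1, 6 rose and 3 fell without replicate 2, and 2 rose and 2 fell without replicate 3. In brain 2 of the 46 genes rose and 6 fell (4.35% and 13.0%, beside 7.55% and 9.61% of all genes). In liver 3 rose and 3 fell (6.52% each, beside 10.1% and 14.4% of all genes). Whether the share of distal genes differed from that of other genes was not tested.

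In the thick ascending limb list 5 of 12 rose and 0 fell, with a median of 0.37 (2 rose without kidney replicate 1, 3 without replicate 2 and 3 without replicate 3). The 41.7% called stood beside 27.4% of all genes. Sostdc1, a secreted antagonist of bone morphogenetic protein and Wnt signals, had 0.71 ± 0.20 (SD, n = 3, adjusted p = 0.00316), and Cldn19, a tight junction claudin of magnesium reabsorption, 0.59 ± 0.17 (adjusted p = 0.00411). Egf, the growth factor precursor, had 0.43 ± 0.37 (adjusted p = 0.0259), a call that ended without kidney replicate 1 (0.46, adjusted p = 0.0857) and without kidney replicate 3 (0.24, adjusted p = 0.223).

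The distal convoluted and connecting tubule list, where calbindin is found, had 2 of 11 genes that rose and 0 that fell, with a median of 0.11 (1 rose without kidney replicate 1, and 1 without replicate 2). Its 18.2% called was below the 27.4% of all genes. Cnnm2, a basolateral magnesium handling protein, had 0.65 ± 0.26 (SD, n = 3, adjusted p = 0.00354), but 0.28 after subtraction of line and column medians (adjusted p = 0.152). Slc12a3, the sodium chloride cotransporter that Wnk4 controls, varied widely between arrays, with 0.51, 1.65 and -0.44 on kidney replicates 1, 2 and 3, and did not pass (adjusted p = 0.141). Without kidney replicate 3 it passed at 1.08 (adjusted p = 0.00988). It was named after its values were seen.

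In the collecting duct list 6 of 23 rose and 2 fell, with a median of 0.20 (2 rose without kidney replicate 1, 3 without replicate 2 and 3 without replicate 3). Of this list 34.8% were called, against 27.4% of all genes. Aqp2, the water channel that V2 receptor signals bring to the membrane, had 0.83, 0.96 and 1.55 on kidney replicates 1, 2 and 3, a mean of 1.12 ± 0.39 (SD, n = 3, adjusted p = 0.000238). Its ratio was higher in kidney than in liver by 0.85 (adjusted p = 0.0135), a call that ended without liver replicate 1 (0.74, adjusted p = 0.0527) and after subtraction of line and column medians (0.34, adjusted p = 0.256). Aqp3, the basolateral water channel of the same cells, had 1.07 ± 0.14 in kidney (adjusted p = 3.08e-05), and also passed in brain at 1.02 ± 0.18 (adjusted p = 6.44e-05) and in liver at 0.54 ± 0.10 (adjusted p = 0.00258). The kidney calls of Aqp2 and Aqp3 were made under all 17 alternatives. Atp6v0a4, a proton pump subunit of intercalated cells, was lower at -0.66 ± 0.20 (adjusted p = 0.00642), but its spot has a number that is a multiple of 8, and such spots had a median of -0.36 in kidney, against 0.06 for the other spots. With the median of its place in all blocks removed it had 0.33 (adjusted p = 0.115), and its call ended without kidney replicate 2 (-0.59, adjusted p = 0.0540). Slc4a1, the other gene that fell, was not at a multiple of 8 and had -0.44 ± 0.13 (adjusted p = 0.0155). In liver Slc4a1 had 0.36 ± 0.20 (adjusted p = 0.0381), and its difference between kidney and liver was -0.79 (adjusted p = 0.00699). Slc4a1 was named after its values were seen. With 1 array left out, the count that fell in this list was 0 to 2.

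**Figure D4:**
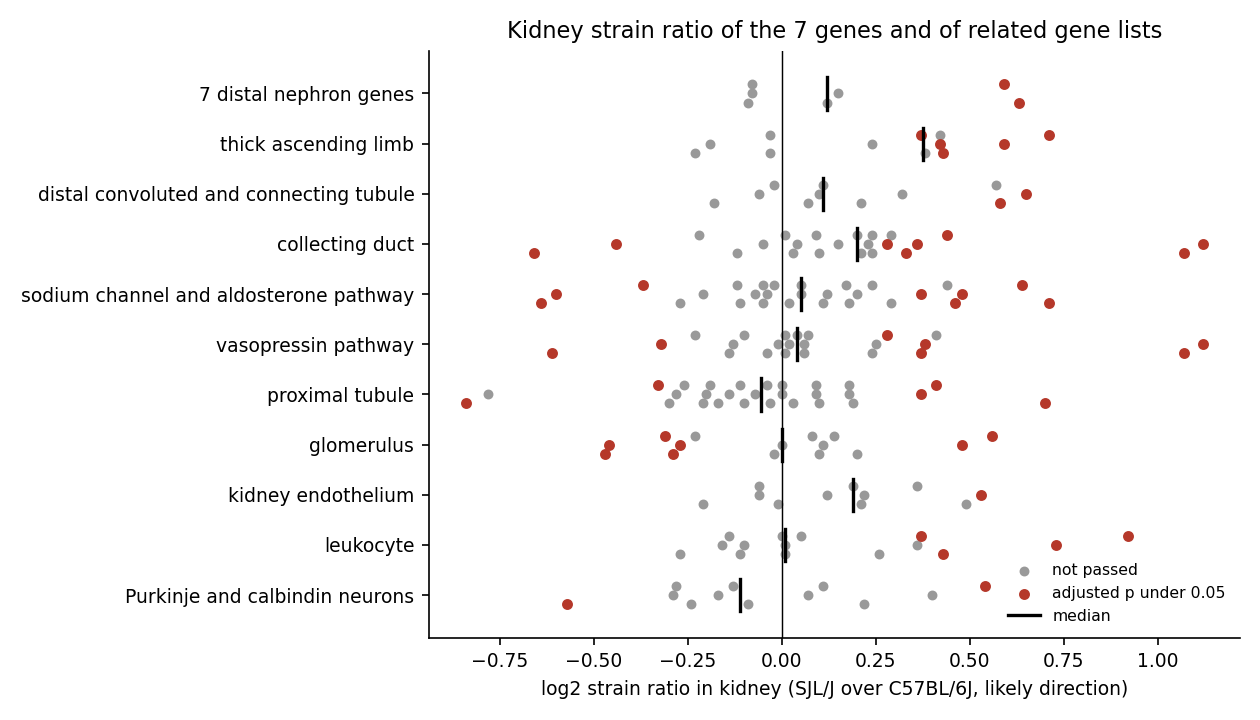
Log2 strain ratio in kidney (horizontal axis) of each measured gene of the 7 distal nephron genes and of 10 lists of related or other cell types; red points passed at an adjusted p under 0.05, grey points did not, and black lines are medians. The thick ascending limb list had a median of 0.37, the collecting duct list 0.20 and the proximal tubule list -0.06.

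Among 28 measured genes that control the sodium channel or respond to aldosterone, 5 rose in kidney, 3 fell and 20 did not pass, with a median of 0.05. The 28.6% called was near the 27.4% of all genes. The count that rose was 3 without kidney replicate 1, and the count that fell was 1 without any 1 of the 3 kidney arrays. Fkbp5, a chaperone induced by glucocorticoids, had 0.71 ± 0.09 (SD, n = 3, adjusted p = 0.000244), and its ratio was higher in kidney than in liver by 0.78 (adjusted p = 0.00209). St14, the membrane protease matriptase, was lower at -0.60 ± 0.09 (adjusted p = 0.000645). St14 was also called lower in brain at -0.38 ± 0.13 (adjusted p = 0.0135, and 0.101 at -0.31 without brain replicate 2) and in liver at -0.33 ± 0.04 (adjusted p = 0.0177). The liver call ended without liver replicate 1, 2 or 3 (-0.31, -0.32 and -0.35, adjusted p = 0.0902, 0.0728 and 0.0630). Its kidney ratio did not pass against liver (adjusted p = 0.142) or brain (adjusted p = 0.292). Asic1, an acid-sensing relative of the channel, had 0.64 ± 0.24 (adjusted p = 0.00608), but 0.56 without kidney replicate 1 (adjusted p = 0.0543). In liver Asic1 had 0.73 ± 0.25 (adjusted p = 0.00317), and its difference between kidney and liver, -0.08, did not pass (adjusted p = 0.788). The kinase gene Pdpk1, at a multiple of 8, had -0.64 ± 0.06 (adjusted p = 0.0305), but -0.14 after subtraction of line and column medians (adjusted p = 0.726). With the median of its place in all blocks removed it had -0.46 (adjusted p = 0.0908). Its call also ended without kidney replicate 1 (-0.64, adjusted p = 0.113), kidney replicate 2 (-0.61, adjusted p = 0.129) or kidney replicate 3 (-0.67, adjusted p = 0.0984).

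Some central genes of that pathway were named after their values were seen. Sgk1, the aldosterone-induced kinase that keeps the channel at the membrane, had 0.20 ± 0.18 in kidney (SD, n = 3, adjusted p = 0.216). Hsd11b2, which shields the mineralocorticoid receptor from glucocorticoids, had 0.29 ± 0.26 (adjusted p = 0.104). Nr3c1, the glucocorticoid receptor, had -0.07 ± 0.14 (adjusted p = 0.653). Tsc22d3, a steroid-induced regulator of the channel, had 0.44 ± 0.33 (adjusted p = 0.0596). None of these passed in kidney as reported. Hsd11b2 passed there after subtraction of line and column medians (0.49, adjusted p = 0.00996) or of the median of its place in all blocks (0.39, adjusted p = 0.0370). Tsc22d3 passed in kidney under 6 of 17 alternatives, among them without kidney replicate 1 (0.62, adjusted p = 0.0441), without brain replicate 3 (0.44, adjusted p = 0.0142) and with the replicate block (0.44, adjusted p = 0.0440). Hsd11b2 and Tsc22d3 fell in liver by 0.43 (adjusted p = 0.0269) and 0.62 (adjusted p = 0.0156). Both liver calls ended without liver replicate 1 (Hsd11b2 -0.28, adjusted p = 0.215, and Tsc22d3 -0.61, adjusted p = 0.0746) and without liver replicate 3 (-0.50, adjusted p = 0.0616, and -0.57, adjusted p = 0.0891). Nedd4l, Prss8 and Stk39, of the same list and also named after their values were seen, passed in kidney. Nedd4l, at a multiple of 8, had -0.37 ± 0.03 (adjusted p = 0.0149), called under 11 of 16 alternatives. In liver Nedd4l had -0.95 ± 0.14 (adjusted p = 4.57e-05). Prss8 had 0.37 ± 0.20 in kidney (adjusted p = 0.0227, called under 13 of 17). Stk39 had 0.48 ± 0.35 in kidney (adjusted p = 0.0125, called under 15 of 17) and 0.63 ± 0.12 in liver (adjusted p = 0.00319).

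Of 15 measured leukocyte markers, 4 rose in kidney, 0 fell and 11 did not pass, with a median of 0.01 and ratios from -0.27 to 0.92. The 26.7% called was near the 27.4% of all genes. The count was 2 without kidney replicate 1 and 2 without replicate 2. Adgre1, the macrophage protein F4/80, had 0.92 ± 0.28 (SD, n = 3, adjusted p = 0.00106) and Tyrobp, a signalling adaptor of myeloid cells, 0.73 ± 0.10 (adjusted p = 0.00221). Fcgr3 (0.37) and C1qb (0.43) also rose. Among those that did not pass were Itgam (-0.27), Cd68 (-0.16), C1qa (0.01) and C1qc (0.00). Of 28 proximal tubule genes 3 rose and 2 fell (17.9% called, against 27.4% of all genes). Slc22a8, an organic anion transporter, had 0.70 ± 0.37 (adjusted p = 0.00613), but 0.54 without kidney replicate 1 (adjusted p = 0.0636). Kap, an androgen-regulated protein of proximal tubule cells, had -0.84 ± 0.16 (adjusted p = 0.00299). Without kidney replicate 1, 0 proximal tubule genes rose and 1 fell, and without replicate 3, 1 rose and 1 fell. Of 15 glomerular genes 2 rose and 5 fell (46.7% called, against 27.4% of all genes). Tcf21, a transcription factor of podocytes and stroma, had -0.47 ± 0.12 (adjusted p = 0.00421), with -0.33 in brain and -0.41 in liver. In the other direction, Wt1, a podocyte transcription factor, had 0.48 ± 0.14 (adjusted p = 0.00265), but -0.05 after subtraction of line and column medians (adjusted p = 0.725). The count of glomerular genes that fell was 1 without any 1 of the 3 kidney arrays. The part of these cell types in the ratios of Scnn1a and Calb1 was not tested.

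Over the 9 arrays, the genes whose ratios followed Scnn1a most closely were Pus7 (Pearson r 0.97), Cysltr1 (0.97) and Dhx9 (0.97). In kidney the mean ratio was 0.89 for Pus7 and 0.45 for Dhx9. Those closest to Calb1 were 1700125G22Rik (0.97), Eif3c (0.96) and Hnrnpd (0.96), with kidney means of 0.99, 0.15 and 0.27. The distal nephron genes chosen by name were not candidates in this comparison. These correlations rest on 3 arrays of 1 pair of pools in each tissue and are given as a description.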

How the data were processed

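Pooled RNA of the strains was compared on 2-colour arrays of 23040 spots, 3 arrays each of kidney, brain and liver, with groups taken from the titles (the channel 1 tissue label of kidney and liver arrays reads brain). The deposited values are log2 ratios, 1 per spot and array, with the log base and direction inferred. The authors used R 2.0.0 and limma, per the submitters' processing notes. The sorted values of all 9 deposited columns were identical, so the size of a ratio follows its rank on its array. For background correction and dye scaling, the method is not given in the sources used here, and with no intensities no filter on dim spots was possible. The number of arrays limits the precision.

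Probes with a single symbol were averaged per gene (15096 genes), named through the platform annotation. limma 3.58.1 in R 4.3.3 fitted 1 coefficient per tissue to the 9 arrays, with 6 residual and 5.17 prior degrees of freedom. Tissue means were tested against 0 and differences between tissues by contrasts, two-sided, with Benjamini-Hochberg adjustment over all genes and a threshold of 0.05. "Rose" and "fell" are used of values that passed. The code was tested on simulated data. A line is 24 consecutive spots and a block 480. From each related list, up to 4 genes were eligible to be named, those with the largest kidney ratios that passed with 1 sign on 3 arrays, and for each gene that passed in a tissue the 3 genes with the highest correlation. Not all eligible genes are described. The genes and lists were chosen with earlier results of these data known. Alternatives were a fit over probes, leaving out probes at multiples of 8, removing medians of lines and columns, the tissues concerned alone, array weights, robust estimation, the replicate number as a block, each array left out, and, added after seeing the data, removing the median of the same place in all 48 blocks.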

Additional observations from a re-analysis of the deposited data

Results flagged for a closer look

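The strain ratio of Scnn1a differed between tissues by the contrast in limma's fit. It was 0.96 higher in kidney than in liver (adjusted p = 0.00202) and 0.79 higher in kidney than in brain (adjusted p = 0.0176), with 3 of 3 kidney arrays above all brain and liver arrays. The ratio of Calb1 differed between kidney and liver by 0.54 (adjusted p = 0.0329), with 3 of 3 kidney arrays above all liver arrays. Each of these rests on 3 arrays of the same pools per tissue, and neither RNA of single mice nor exchanged dyes were measured. With 3 arrays per tissue, no gene's values were tested for a single outlying array.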

How the results depend on the processing

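The calls of Scnn1a and Calb1 in kidney and of Scnn1a between kidney and liver held under all 17 alternatives. Several of these, such as a fit over probes or leaving out an array of a tissue not compared, cannot move the ratio of a gene with 1 probe. They can change only its adjusted p. With medians of lines and columns removed, 1 gene was called in brain and 1 between kidney and liver. With the median of the same place in all blocks removed, 0 were called in liver and 1 between kidney and liver. On the liver arrays alone 0 were called in liver, and with array weights 2. With 1 array left out, 2 of the 7 genes were called in kidney each time, 0 to 1 in brain, 0 to 2 in liver, 1 to 3 between kidney and liver and 0 to 1 between kidney and brain. No pairing of samples by replicate number was seen. Same-numbered arrays of different tissues had deviations correlated at -0.08 to 0.05, and arrays of other numbers at -0.12 to 0.15. With the replicate block 2 genes were called in kidney, 0 in brain, 0 in liver, 2 between kidney and liver and 1 between kidney and brain.

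Over all genes, the 4138 calls in kidney were 2170, 2278 and 2384 without kidney replicates 1, 2 and 3. The 2590 in brain were 463 on brain arrays alone, 1532 without brain replicate 1 and 1054 without replicate 2. The 3700 in liver were 2179, 2404 and 2186 without liver replicates 1, 2 and 3. The 2951 between kidney and liver ranged from 1582 to 4444, and the 825 between kidney and brain from 217 to 2606 (481 with the replicate block).

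Some signs turned, in no case with a call under the alternative, and the cause was not tested. With medians of lines and columns removed, Umod had 0.10 in liver and -0.08 between kidney and liver, Scnn1g 0.15 in liver and 0.00 between kidney and brain, and in kidney Podxl had 0.16, Wt1 -0.05 and Kcnj1 0.24. With the median of the same place removed, Umod had -0.08 in kidney, 0.02 in liver and -0.10 between kidney and liver, Scnn1g 0.00 in liver, and Wnk4 -0.05 in brain, 0.08 between kidney and liver and 0.00 between kidney and brain. The same setting gave Atp6v0a4 0.33, Podxl 0.04 and Kcnj1 0.12 in kidney. With array weights Umod had 0.03 in brain. With 1 array left out, ranges that crossed 0 were -0.19 to 0.01 for Scnn1b and -0.13 to 0.00 for Nr3c1 in kidney, -0.21 to 0.03 for Umod and -0.03 to 0.03 for Wnk4 in brain, and -0.14 to 0.02 for Umod, -0.03 to 0.16 for Calb1 and -0.15 to 0.00 for Wnk4 in liver. Between kidney and liver they were -0.09 to 0.06 for Scnn1g and -0.13 to 0.07 for Wnk4. Of 31 genes of the related lists eligible to be named, 11 kept their kidney call under all alternatives.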

Other observations

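The genes of vasopressin and of another of its receptors were named after their values were seen. Avpr1a, the V1a receptor through which vasopressin acts on liver cells, had log2 ratios of -0.56, -0.99 and -1.34 on liver replicates 1, 2 and 3 and 0.00, 0.10 and 0.09 in kidney. The liver mean was -0.96 ± 0.39 (SD, n = 3, adjusted p = 0.000299, limma). The ratio was higher in kidney than in liver by 1.03 (adjusted p = 0.00318), and both calls were made under all 17 alternatives. Avp, the hormone's own gene, had 0.59 ± 0.25 in brain (adjusted p = 0.0284). That call ended without brain replicate 1 (0.69, adjusted p = 0.0545), brain replicate 2 (0.63, adjusted p = 0.0984) or brain replicate 3 (0.46, adjusted p = 0.109). No difference of Avp between kidney and brain (-0.52, adjusted p = 0.185) or liver (-0.02, adjusted p = 0.954) passed. Of 23 measured genes of the vasopressin pathway, 5 rose and 2 fell in kidney (30.4% called, against 27.4% of all genes), with a median of 0.04. Aqp2, Aqp3 and Aqp4 are also in the collecting duct list, and Aqp2 and Aqp3 are counted among the genes that rose in both lists. The counts in kidney were 3 and 1 without kidney replicate 1, 2 and 1 without replicate 2, and 3 and 1 without replicate 3. In liver 3 rose and 4 fell (30.4% called, against 24.5% of all genes).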
